A study of Schizosaccharomyces pombe with 9 samples.

Results

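The genes described are 9 targets of MBF, the transcription factor that switches on a group of genes as fission yeast cells pass from G1 into S phase. They were chosen by name from a list of well known MBF targets (cdc18, cdt1, cdt2, cdc22, suc22, mrc1, mik1, cig2 and nrm1), and all 9 were found among the 6988 gene IDs of the count matrix. The rule goes by name and uses no measured value, but the genes were proposed with earlier results of these data known. All 9 also passed the filter on low counts, which asked for 10 counts or more in no fewer than 3 of the libraries and left 6091 genes to be tested.

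Poly(A)+ RNA of growing Schizosaccharomyces pombe was compared between a pair of snf22 mutants and wild type, with 3 biological replicates of each. Snf22 is the ATPase of SWI/SNF, a complex that moves and removes nucleosomes. In snf22∆ (snf22∆::kanMX) the reading frame was replaced from its start codon by the kanMX drug resistance marker, and its last part was left in place. In snf22-(D996A-E997A)::kanMX a pair of acidic residues of the ATPase site was changed to alanine, with kanMX and a poly(A) site of nmt1 placed downstream of the gene. WT carried no marker by its label, so the marker, the added poly(A) site and the mutations cannot be told apart as sources of a difference. All 9 libraries came from h- cells in vegetative growth, taken during log phase from YES medium kept at 30°C. Each genotype was represented by a single strain, and nothing in the labels says how the 3 cultures of a strain were separated in time.

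MBF holds Cdc10 together with the DNA binding subunits Res1 and Res2, and it acts at the MluI cell cycle box, or MCB. The coactivator Rep2 helps it, and the corepressors Nrm1 and Yox1 bind it at the end of the wave and turn its targets off again. Nrm1 is itself an MBF target, which closes a negative feedback loop. When replication stalls, the checkpoint kinase Cds1 keeps the targets on. The products cover the steps of S phase entry: they license origins, supply deoxynucleotides, guard stalled forks and restrain or start the cell cycle kinase Cdc2. The cultures were not synchronized. A count is therefore an average over all phases of the cycle, and fewer cells in G1 and S phase cannot be told apart from less RNA per cell.

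The letters of the MCB were looked for around the start of each gene, to see what the members share beside their name. The search covered the full box ACGCGT and its core CGCG. Both read the same on either strand, and each full box holds 1 core. In the 300 bases from 250 before to 50 after the annotated gene start, 4 of the 9 members held ACGCGT, against 3.23% of 5144 coding genes. The core was present in 8 of the 9 members, against 18.4% of the coding genes. At least 3 cores, a limit chosen after the counts were seen, were found in the same 8 members and in 0.836% of the coding genes. The sequences came from RefSeq, build ASM294v3, matched by systematic ID for all 9 members. The stretches of the 6 members with an adjusted p of at most 0.05 in any comparison are given below in the sense of the gene. Each runs from 8 bases before the first core to 8 after the last one within the 250 bases before the gene start. Every core and every full box is in capitals.
mrc1, chrI:4212389-4212468, minus strand: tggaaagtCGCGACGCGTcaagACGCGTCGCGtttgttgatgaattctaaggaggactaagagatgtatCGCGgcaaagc
cig2, chrI:2709608-2709742, plus strand: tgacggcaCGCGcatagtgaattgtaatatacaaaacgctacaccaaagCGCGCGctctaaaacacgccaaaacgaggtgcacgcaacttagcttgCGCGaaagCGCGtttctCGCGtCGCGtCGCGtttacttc
nrm1, chrII:4285845-4285904, plus strand: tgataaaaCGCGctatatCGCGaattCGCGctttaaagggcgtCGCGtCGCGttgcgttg
cdc18, chrII:2218016-2218126, minus strand: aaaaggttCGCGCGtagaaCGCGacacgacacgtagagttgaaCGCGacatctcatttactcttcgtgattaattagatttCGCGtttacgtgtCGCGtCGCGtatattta
cdt2, chrI:2035742-2035833, minus strand: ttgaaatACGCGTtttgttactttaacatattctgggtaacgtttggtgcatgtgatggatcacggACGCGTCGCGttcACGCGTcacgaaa
cdt1, chrII:477287-477385, plus strand: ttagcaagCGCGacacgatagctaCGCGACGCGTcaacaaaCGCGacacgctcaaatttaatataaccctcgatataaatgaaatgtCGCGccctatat
The mrc1 stretch showed 5 cores, 2 of them in full boxes set close to each other. The cig2 stretch held 8 cores and no full box, and the stretches of nrm1 and cdc18, with 5 and 7 cores, held no full box either. The cdt2 stretch had 4 cores, of which 3 were in full boxes, and the cdt1 stretch had 5, of which 1 was in a full box.

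The members that were not called in any comparison differed from each other in the same window. The window of cdc22 held 4 cores, 2 of them in full boxes. That of mik1 held 3 cores and no full box, and its 3 full boxes lay farther downstream, with cores 51 to 86 bases past the annotated gene start. The window of suc22 held no whole core, since 1 core that started 47 bases past the gene start ran over its edge, and the nearest full box had its core 574 bases before the gene start. A match is a description of the letters, and binding of MBF was not measured.

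**Figure D1:**
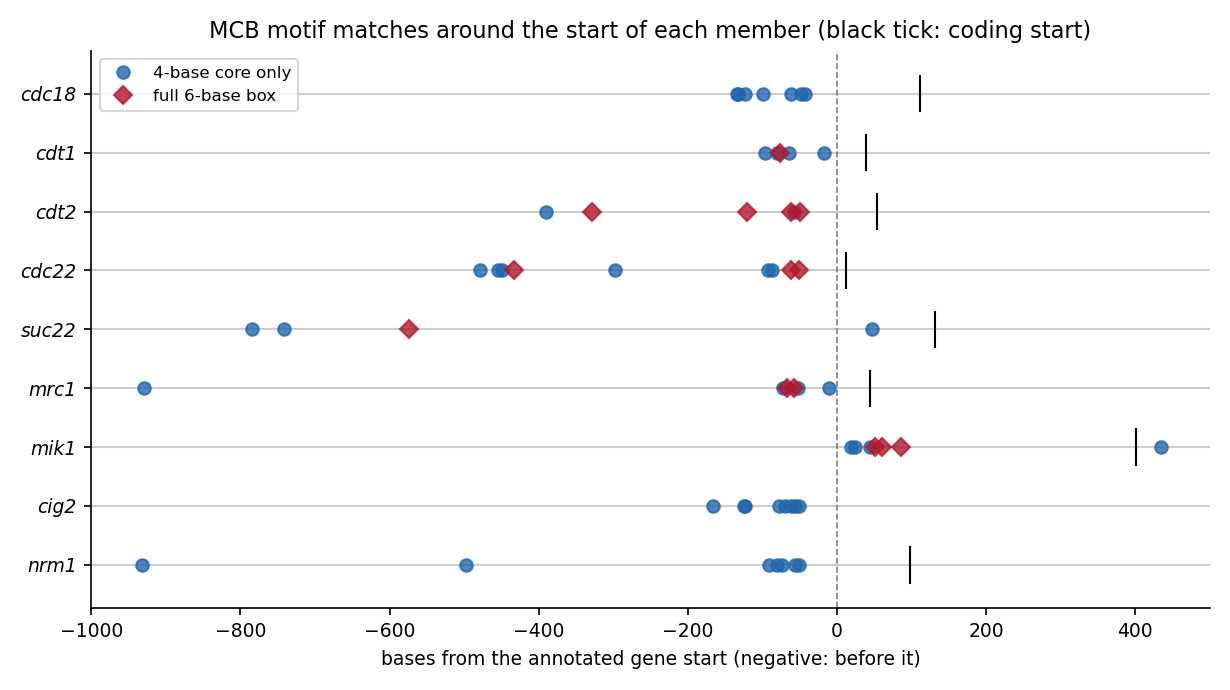
Matches to the MCB from 1000 bases before to 500 bases after the annotated start of each gene (x axis, in bases), with 1 row for each member, circles for a core alone, diamonds for a full box and a black tick for the coding start. The coding start of cig2, 1298 bases past the gene start, is off the axis. In 7 members a group of cores lies between 11 and 166 bases before the start, those of mik1 lie after it and those of suc22 are scattered.

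The libraries held 15696972 to 22664218 counts each, and the members took 0.189% to 0.2265% of them. The raw count of a member in a library ranged from 342 to 26458. Normalized counts below are raw counts scaled by TMM factors to the mean effective library size, and they compare a gene between libraries, not 1 gene with another. The snf22 transcript averaged 1357 ± 126 in snf22∆, 2183 ± 189.7 in snf22-(D996A-E997A) and 2784 ± 48.61 in WT (SD, n = 3 each). A count per gene does not show which part of the gene its reads came from, and it cannot check a change of single residues. In WT, replicate 2 stood apart: its chi-square per gene was 70.75 against replicate 1 and 59.25 against replicate 3, where the remaining pair gave 9.198. In snf22-(D996A-E997A) it was replicate 1, with 32.86 and 34.88 against the others and 5.152 for the remaining pair. The Pearson coefficients of log2 counts set these libraries apart far less. They were 0.9905 and 0.9888 for WT replicate 2 against 0.9912 for the remaining pair. For snf22-(D996A-E997A) replicate 1 they were 0.9943 and 0.9932 against 0.9949. Calls that change without these libraries are given both ways. The p-values below are those of edgeR's quasi-likelihood test, adjusted by Benjamini-Hochberg over all 6091 genes. They set a change against the spread between cultures of the same strain, estimated over all 3 genotypes in 1 fit.

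In snf22∆ cells, the cyclin gene cig2 was 1.55-fold lower than in WT, while mrc1 was 1.62-fold higher and nrm1 1.29-fold higher. The other 6 members, which include both genes of ribonucleotide reductase and both licensing genes, were not called. Thus 2 members rose and 1 fell at an adjusted p of at most 0.05. Over all genes tested, 56.0% were called in this comparison, with 30.2% higher and 25.8% lower, so that 3 of 9 members is no larger a share than that of genes at large. The median log2 fold change of the members was −0.05, against 0.02 for all genes tested and 0.06 for the protein-coding ones. In 4 of the 9 members the snf22∆ libraries did not overlap those of WT, which was so for 63.1% of all genes.

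In snf22-(D996A-E997A) cells, mrc1 was 1.71-fold higher than in WT, and cdc18 and cdt2 were each 1.25-fold lower. Here 1 member rose and 2 fell, against 48.5% of all genes called, with 25.8% higher and 22.7% lower. The median log2 fold change was −0.15 for the members, against 0.02 for all genes and 0.06 for protein-coding genes. The libraries of the genotypes did not overlap in 3 of the 9 members and in 53.6% of all genes. Without the 2 libraries that stood apart, an alternative added after the data were seen, 5 members were lower (cdc18, cdt1, cdt2, mik1 and cig2) and 1 was higher, against 23.5% and 25.5% of 6058 genes tested. In snf22∆ the same omission left 2 members lower and 2 higher, against 26.5% and 30.6%. The rule of the study asks for an adjusted p of 0.05 or less, a 2-fold change or more, and on average 100 or more normalized counts in the group with the higher level. By it, 0 of the 9 members were called in either mutant, against 5.65% of all genes for snf22∆ and 4.97% for snf22-(D996A-E997A). The fitted change of every member was below 2-fold in all 3 comparisons. The 2 mutants were set against the same WT libraries, so that their changes relative to WT are not independent of each other.

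**Figure D2:**
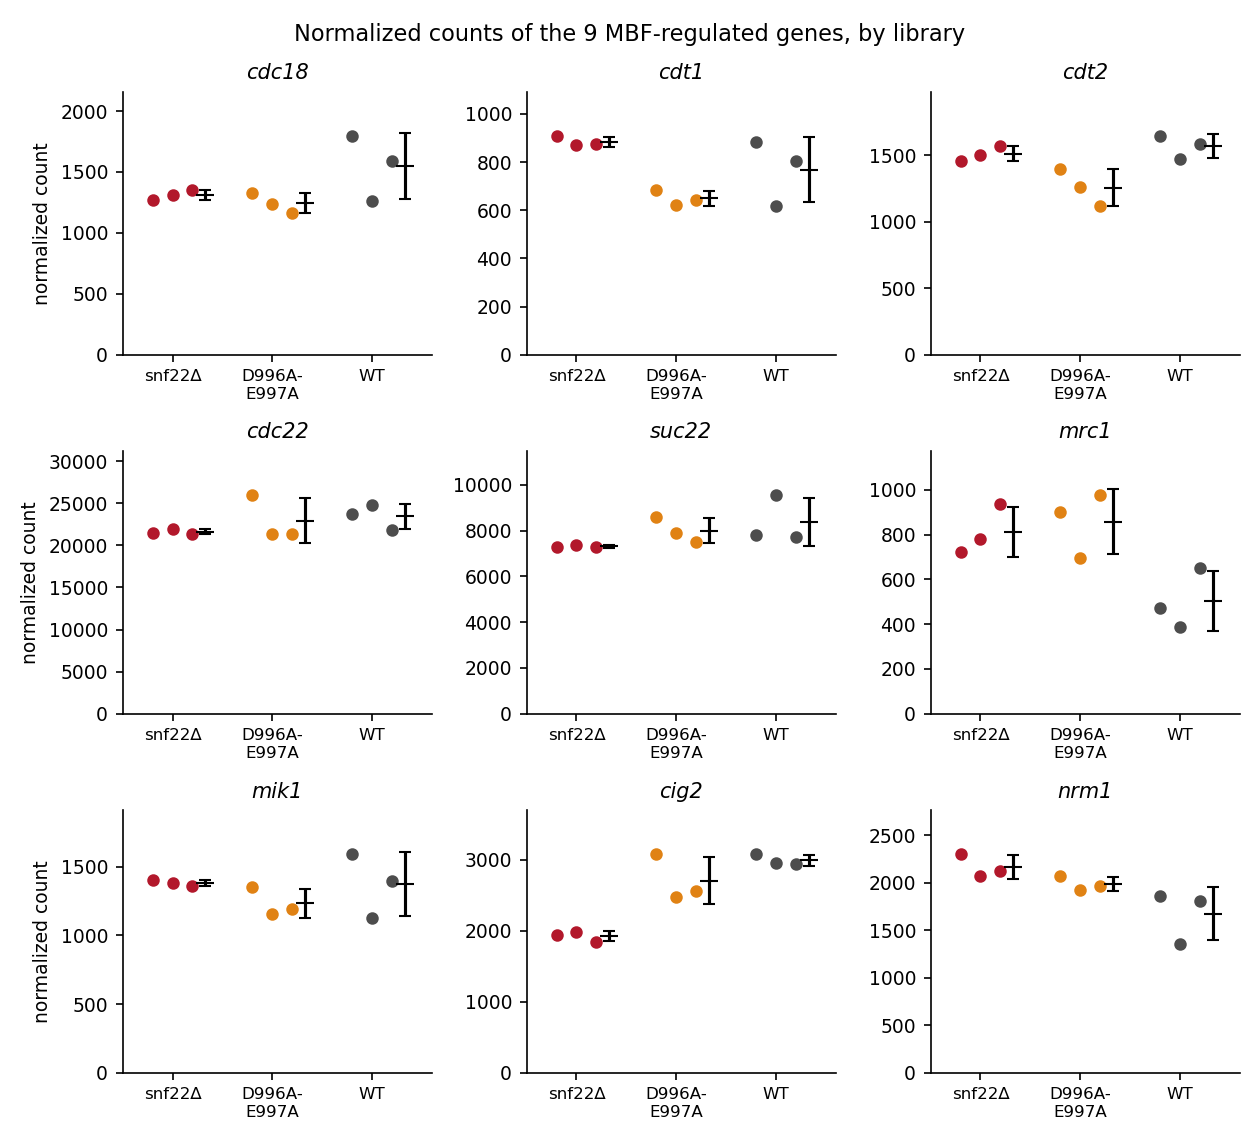
Normalized count (y axis, from 0) of each member in each library, for snf22∆ (red), snf22-(D996A-E997A) (orange) and WT (grey), with the mean and SD of the 3 replicates in black beside the points. The mrc1 points of both mutants lie above all WT points, and the cig2 points of snf22∆ lie below all others, with a highest value of 1984 against 2469 for the lowest of the other libraries.

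Cdc18 and Cdt1 load the MCM helicase at origins, which is the licensing step. The cdc18 mRNA was counted at 1270, 1314 and 1353 in snf22∆, at 1326, 1238 and 1163 in snf22-(D996A-E997A), and at 1797, 1260 and 1587 in WT. WT replicate 2 lay inside the range of snf22-(D996A-E997A) and just below that of snf22∆, and WT replicates 1 and 3 lay above both mutants. The log2 fold change of cdc18 was −0.32 in snf22-(D996A-E997A) (standard error 0.11, adjusted p = 0.0358) and −0.24 in snf22∆ (standard error 0.11, adjusted p = 0.0883). Whether cdc18 passed the threshold depended on single libraries. Without WT replicate 2 and snf22-(D996A-E997A) replicate 1 the values were −0.50 (adjusted p = 0.000428) in snf22-(D996A-E997A) and −0.37 (adjusted p = 0.000837) in snf22∆, and without WT replicate 2 alone snf22∆ was at −0.40 (adjusted p = 0.00114). The call of cdc18 in snf22-(D996A-E997A) was lost in 7 of 17 alternatives: upper quartile scaling, a fit of only those groups, and the omission of WT replicate 1 or 3, of snf22∆ replicate 2 or of snf22-(D996A-E997A) replicate 2 or 3, with adjusted p-values of up to 0.155.

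The cdt1 mRNA had normalized counts of 909, 868.8 and 874.4 in snf22∆, 685, 622.4 and 641.4 in snf22-(D996A-E997A), against 881.4, 618.8 and 804.1 in WT. The mutants did not overlap each other, and the WT libraries ranged from below snf22-(D996A-E997A) to within snf22∆. Relative to WT the log2 fold change was 0.20 in snf22∆ (95% interval −0.06 to 0.46, adjusted p = 0.162) and −0.24 in snf22-(D996A-E997A) (95% interval −0.50 to 0.02, adjusted p = 0.11). Neither was called. Without WT replicate 2 the value of cdt1 in snf22∆ was 0.03 (adjusted p = 0.739), and that in snf22-(D996A-E997A) was −0.39 (adjusted p = 0.00271) and passed the threshold. The mutants did differ when compared directly, with cdt1 at −0.44 in snf22-(D996A-E997A) relative to snf22∆ (standard error 0.12, adjusted p = 0.0241).

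Cdt2 brings substrates to the Cul4-Ddb1 ubiquitin ligase in S phase, among them Cdt1 and the ribonucleotide reductase inhibitor Spd1. Its mRNA was counted at 1458, 1500 and 1569 in snf22∆, at 1394, 1259 and 1115 in snf22-(D996A-E997A), and at 1645, 1469 and 1583 in WT. All snf22-(D996A-E997A) libraries were below all others, and snf22∆ overlapped WT. For cdt2 the log2 fold change was −0.32 in snf22-(D996A-E997A) (standard error 0.09, adjusted p = 0.0126) and −0.05 in snf22∆ (95% interval −0.25 to 0.14, adjusted p = 0.622). The fall of cdt2 in snf22-(D996A-E997A) missed the threshold without replicate 3 of that mutant, at an adjusted p of 0.0817, and with upper quartile scaling, at 0.0509.

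The subunits of ribonucleotide reductase, the enzyme that makes deoxynucleotides, showed no called change. For cdc22, which encodes the large subunit, the normalized counts were 21490, 21920 and 21350 in snf22∆, 26000, 21370 and 21370 in snf22-(D996A-E997A), against 23680, 24830 and 21830 in WT. The groups overlapped in both comparisons with WT, and the highest count was that of snf22-(D996A-E997A) replicate 1. Fitted log2 fold changes of cdc22 were −0.12 in snf22∆ (95% interval −0.32 to 0.08) and −0.03 in snf22-(D996A-E997A) (95% interval −0.23 to 0.16).

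The mRNA of suc22, for the small subunit, had 7265, 7391 and 7303 normalized counts in snf22∆, 8574, 7909 and 7490 in snf22-(D996A-E997A), against 7800, 9563 and 7737 in WT. The snf22∆ values were close to each other and below all WT values, and WT replicate 2 was the highest of the 9. Relative to WT, suc22 was at a log2 fold change of −0.19 in snf22∆ (95% interval −0.39 to 0.00, adjusted p = 0.0858) and −0.07 in snf22-(D996A-E997A) (95% interval −0.26 to 0.13, adjusted p = 0.559). The value in snf22∆ passed the threshold under 4 of the 17 alternatives, RLE scaling, the DESeq2 test, coding genes only and the omission of WT replicate 3, with adjusted p-values of 0.0221 to 0.178 over all 17. This gene is known to give a shorter and a longer transcript, which a count per gene does not separate.

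Mrc1 is the mediator through which stalled forks activate Cds1, the fission yeast relative of claspin. The mrc1 mRNA was counted at 721.8, 779.5 and 937.3 in snf22∆, at 899.2, 695.1 and 977.5 in snf22-(D996A-E997A), and at 470.5, 388.3 and 651 in WT. Every mutant library was above every WT library, although the replicates of each genotype were far apart, with a highest count 1.3 times the lowest in snf22∆, 1.41 times in snf22-(D996A-E997A) and 1.68 times in WT. The log2 fold change of mrc1 was 0.69 in snf22∆ (standard error 0.18, adjusted p = 0.00796) and 0.77 in snf22-(D996A-E997A) (standard error 0.18, adjusted p = 0.00614). The mutants relative to each other were at 0.08 (95% interval −0.32 to 0.47, adjusted p = 0.81). The rise of mrc1 was called in both mutants under all 17 alternatives, with log2 values of 0.51 to 0.90 in snf22∆ and 0.58 to 1.00 in snf22-(D996A-E997A).

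Mik1 puts the inhibitory phosphate on Cdc2 beside Wee1. Its mRNA was counted at 1402, 1381 and 1361 in snf22∆, at 1355, 1154 and 1192 in snf22-(D996A-E997A), and at 1593, 1126 and 1395 in WT. The WT libraries spanned both mutants. As a log2 fold change, mik1 was at 0.01 in snf22∆ (95% interval −0.24 to 0.26) and −0.15 in snf22-(D996A-E997A) (95% interval −0.40 to 0.09), and neither was called. Without WT replicate 2 the value of mik1 in snf22-(D996A-E997A) was −0.29 (adjusted p = 0.0136).

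Cig2 is the main B-type cyclin of the G1/S step in fission yeast and phosphorylates targets with Cdc2. The normalized counts of cig2 were 1941, 1984 and 1848 in snf22∆, 3084, 2469 and 2562 in snf22-(D996A-E997A), against 3080, 2958 and 2935 in WT. The snf22∆ libraries were below all others, and the replicates within WT and within snf22∆ were close to each other. In snf22-(D996A-E997A), 2 of 3 libraries were below all WT libraries and replicate 1 was level with the highest of them. The log2 fold change of cig2 was −0.64 in snf22∆ (standard error 0.08, adjusted p = 0.00013), and −0.15 in snf22-(D996A-E997A) (95% interval −0.33 to 0.04, adjusted p = 0.168). Without replicate 1 of snf22-(D996A-E997A) the value in that mutant was −0.25 (adjusted p = 0.0165). Without both libraries that stood apart it was −0.26 (adjusted p = 0.0031), and that in snf22∆ was −0.65 (adjusted p = 3.48e-06). The fall of cig2 in snf22∆ was called under all 17 alternatives, at log2 values of −0.68 to −0.56.

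Nrm1 is the corepressor that MBF induces against itself. The mRNA of nrm1 had 2304, 2066 and 2124 normalized counts in snf22∆, 2067, 1928 and 1966 in snf22-(D996A-E997A), against 1864, 1354 and 1807 in WT. All mutant libraries were above all WT libraries, of which replicate 2 was far below the others. On the log2 scale the change of nrm1 was 0.37 in snf22∆ (standard error 0.11, adjusted p = 0.0123) and 0.25 in snf22-(D996A-E997A) (95% interval 0.01 to 0.48, adjusted p = 0.0759). The call in snf22∆ was lost without snf22∆ replicate 1 (adjusted p = 0.0521), and without both libraries that stood apart the value was 0.24 (adjusted p = 0.00471). The value of nrm1 in snf22-(D996A-E997A) also rested on single WT libraries. It was 0.33 (adjusted p = 0.0373) without WT replicate 1 and 0.10 (adjusted p = 0.22) without WT replicate 2, and without both libraries that stood apart it was 0.08 (adjusted p = 0.278).

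The mutants were also compared directly, which shows where the deletion and the change of the ATPase site differ. Relative to snf22∆, snf22-(D996A-E997A) cells had more cig2 and less cdt1 mRNA, and the other 7 members were not called. For cig2 the log2 difference was 0.49 (standard error 0.08, adjusted p = 0.00231), which is 1.41-fold, and it was called under all 17 alternatives. For cdt1 the difference was 1.36-fold and less firm, since the call was lost when any 1 of the snf22∆ replicates, or replicate 2 or 3 of snf22-(D996A-E997A), was left out (adjusted p up to 0.101). So 1 member was higher and 1 lower, against 16.8% of all genes called, with 8.13% higher and 8.64% lower. The libraries of the mutants did not overlap for 5 of the 9 members and for 47.4% of all genes. The difference of cdt2, at −0.26 (95% interval −0.46 to −0.07, adjusted p = 0.0601), was past the threshold under 4 of the 17 alternatives, among them the omission of WT replicate 2 (adjusted p = 0.0281) and of snf22-(D996A-E997A) replicate 1 (adjusted p = 0.0309). By the rule of the study 0 members were called, against 1.86% of all genes. Without the 2 libraries that stood apart, cdt1, cdt2 and mik1 were lower and cig2 was higher, against 15.5% of the genes lower and 16.0% higher.

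**Figure D3:**
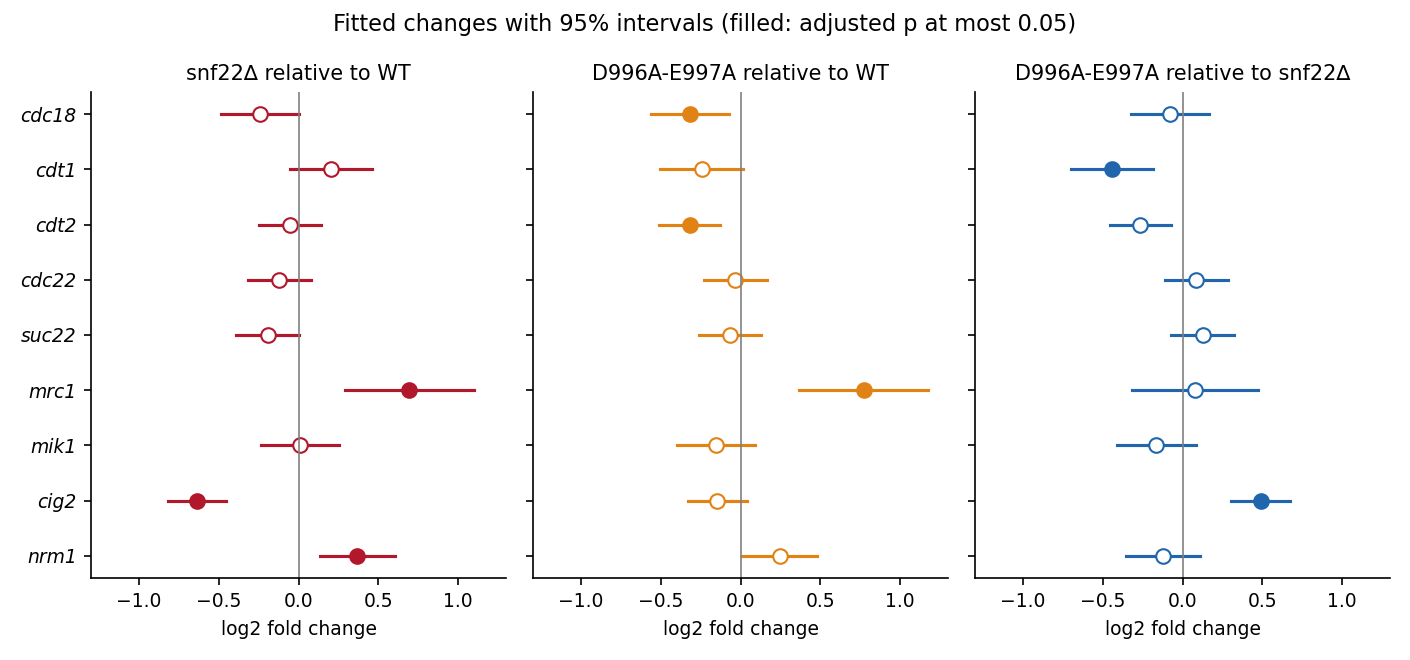
Fitted log2 fold change of each member (x axis) with its 95% interval, for each mutant relative to WT and for the mutants relative to each other, with filled points for an adjusted p of at most 0.05. The interval of mrc1 lies above 0 in both mutants, and that of cig2 lies below 0 in snf22∆, holds 0 in snf22-(D996A-E997A) and lies above 0 between the mutants, with a direct difference of 0.49.

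Reads of a gene and of a transcript on the other strand can be told apart only where counting uses strand, and the setting is not given in the sources used here, although the library kit marks strand. In ASM294v3, mrc1-antisense-1 covers 100% of mrc1. Its mean count was 299.8 in snf22∆, 288.4 in snf22-(D996A-E997A) and 325.1 in WT, and its log2 fold change was −0.12 in snf22∆ (adjusted p = 0.363) and −0.17 in snf22-(D996A-E997A) (adjusted p = 0.192), so that it did not rise with mrc1. For cig2-antisense-1, which covers 44.6% of cig2, the log2 fold change was −0.20 in snf22∆ (adjusted p = 0.482) and −0.07 in snf22-(D996A-E997A) (adjusted p = 0.806). The neighbor pmc1, on the other strand over 33.3% of cig2, was at 0.01 in snf22∆ (adjusted p = 0.932). The transcript of tad1 lies opposite 54.6% of nrm1 and moved with it, at 0.50 in snf22∆ (adjusted p = 0.0112) and 0.37 in snf22-(D996A-E997A) (adjusted p = 0.0522). Its part in the nrm1 count was not tested, and the value of nrm1 is uncertain for that reason. Over 35.7% of cdc18 lies cdc18-antisense-1, with a mean count of 48.53 in snf22∆, 70.42 in snf22-(D996A-E997A) and 51.03 in WT. Its log2 fold change was −0.07 in snf22∆ (adjusted p = 0.776) and 0.46 in snf22-(D996A-E997A) (adjusted p = 0.0721), where that of cdc18 was negative.

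Replicates of a genotype varied together for some members. The deviations of each library from the mean of its genotype were compared over the 9 libraries for all 36 pairs of members, as a description. All members share the depth and scaling of a library. The Pearson coefficient was 0.97 for cdt1 with mik1 and for cdt1 with nrm1, and 0.93 for cdc18 with both mik1 and cdt1. All of these genes were low in WT replicate 2. With that library left out, cdt1 was at 0.948 with mik1 and at 0.916 with nrm1. In the same way cdc18 was at 0.855 with mik1 and at 0.82 with cdt1. The deviations used were still taken from WT means that include WT replicate 2, and means without it were not used. A second set held cdc22 with cig2, at 0.85, and cdc22 with suc22, at 0.74. The largest deviations of cdc22 and cig2 were both in snf22-(D996A-E997A) replicate 1, at 0.19 and 0.20. The coefficient of this pair without that library was not computed. The sets were not cleanly separate, since cig2 was at 0.339 with suc22 and at 0.548 with mik1. Of the 36 pairs, 8 were below 0, and 6 with WT replicate 2 left out in the same way. The lowest was suc22 with nrm1, at −0.75, and at −0.369 with that library left out. These genes were farthest from their WT means in WT replicate 2, at 0.20 for suc22 and −0.29 for nrm1. WT replicate 2 had the lowest WT count of 6 members (cdc18, cdt1, cdt2, mik1, mrc1 and nrm1) and the highest of cdc22 and suc22. In snf22-(D996A-E997A), replicate 1 had the highest count of 8 members, with mrc1 as the exception.

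**Figure D4:**
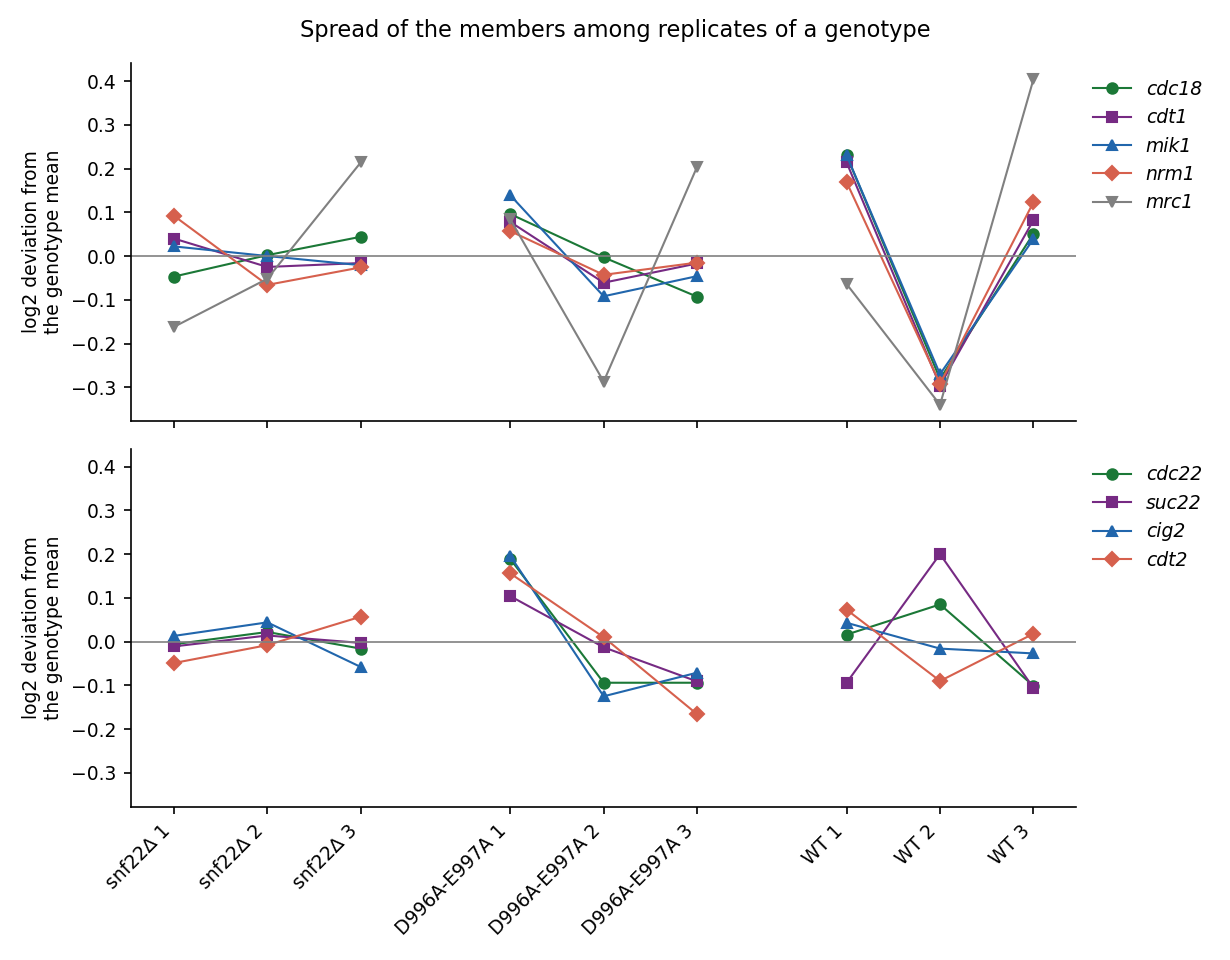
Log2 deviation of each member (y axis) from the mean of its genotype in each library (x axis), with the members that move with cdt1 and mrc1 in the upper panel and the other members in the lower one. Lines join the replicates of a genotype only to guide the eye. WT replicate 2 is low for all 5 genes of the upper panel and high for suc22 and cdc22.

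The genes whose pattern was most like the mean profile of the members were sought among 4751 other coding genes that averaged 100 or more normalized counts. By Pearson coefficient over the 9 libraries they were SPCC1223.01 (0.926), which encodes a ubiquitin ligase that acts on stalled ribosomes, cdc15 (0.916), for an F-BAR protein of the cytokinetic ring, and rna1 (0.851), for the GTPase activator of Ran. They were followed by pdx1 (0.849), rpc2 (0.810) and erj5 (0.801). None of these 6 is in the lists of MBF or G1/S genes used here, cdc15 is in that of mitotic genes, and all of their log2 fold changes relative to WT lay between −0.13 and 0.07. The mean profile itself was narrow, from −0.142 in WT replicate 2 to 0.103 in snf22-(D996A-E997A) replicate 1 on the log2 scale. Its extremes are thus the libraries that stood apart, and it averages members that moved in opposite directions.

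Among the subunits and regulators of MBF, 2 rose and 2 fell of 6 in snf22∆, and 1 rose and 2 fell in snf22-(D996A-E997A). The core subunit gene cdc10 averaged 1278 in snf22∆, 1334 in snf22-(D996A-E997A) and 961.4 in WT, which is a log2 fold change of 0.41 in snf22∆ (adjusted p = 0.00781) and 0.47 in snf22-(D996A-E997A) (adjusted p = 0.00502). The DNA binding subunits moved in opposite directions in snf22∆, where res2 was at 0.49 (adjusted p = 0.00307) and res1 at −0.39 (adjusted p = 0.000593). In snf22-(D996A-E997A) res2 was at 0.17 (adjusted p = 0.203) and res1 at −0.17 (adjusted p = 0.0448). The meiotic coactivator gene rep1 fell by 0.86 on the log2 scale in snf22∆ (adjusted p = 0.000502) and by 0.44 in snf22-(D996A-E997A) (adjusted p = 0.0231). The coactivator of growing cells, rep2, was at 0.00 in snf22∆ (adjusted p = 0.971) and at 0.16 in snf22-(D996A-E997A) (adjusted p = 0.0588). The corepressor gene yox1 was at 0.43 in snf22∆ (adjusted p = 0.15) and 0.14 in snf22-(D996A-E997A) (adjusted p = 0.668).

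Other genes of G1 and S phase were counted by lists set by function, to be read beside the shares of all genes. In snf22∆ 30.2% of all genes were called higher and 25.8% lower. In snf22-(D996A-E997A) 25.8% were called higher and 22.7% lower. Of 11 other G1/S genes, which include yox1 of the MBF list, 5 rose and 1 fell in snf22∆, and 4 rose and 2 fell in snf22-(D996A-E997A). Among them psm3, for a cohesin subunit, was at 0.94 in snf22∆ (adjusted p = 0.00103) and 0.56 in snf22-(D996A-E997A) (adjusted p = 0.0207). Of 22 genes of origin licensing and firing, 11 rose in each mutant, while 4 fell in snf22∆ and 2 in the ATPase site mutant. The helicase activator gene cdc45 was at 0.80 in snf22∆ (adjusted p = 0.00225) and at 0.86 in snf22-(D996A-E997A) (adjusted p = 0.00208), and orc3, for a subunit of the origin recognition complex, was at 0.67 in snf22∆ (adjusted p = 0.00241) and 0.80 in snf22-(D996A-E997A) (adjusted p = 0.00115). Of 12 checkpoint genes, 6 rose and 0 fell in snf22∆, and 5 rose and 1 fell in snf22-(D996A-E997A). The kinase gene cds1, whose product works with Mrc1, was counted at 919.1 in snf22∆, 878.6 in snf22-(D996A-E997A) and 492.1 in WT, which is a log2 fold change of 0.90 in snf22∆ (adjusted p = 7.52e-05) and 0.84 in snf22-(D996A-E997A) (adjusted p = 0.000175). These counts were not tested against those of all genes or of the members.

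In the lists closest to single members, the picture was mixed. Of 4 genes of deoxynucleotide supply, 2 fell and 0 rose in each mutant. The dihydrofolate reductase gene dfr1 fell by 0.85 on the log2 scale in snf22∆ (adjusted p = 7.81e-05) and by 1.17 in snf22-(D996A-E997A) (adjusted p = 9.44e-06). The gene of the reductase inhibitor Spd1 was at −0.06 in snf22∆ (adjusted p = 0.718), and spd1 fell by 0.63 in snf22-(D996A-E997A) (adjusted p = 0.00238). Of the 4 genes of the Cul4 ligase and the signalosome, with which Cdt2 works, 3 rose and 1 fell in snf22∆, and 1 rose and 1 fell in snf22-(D996A-E997A). The signalosome subunit gene csn2 was at 0.67 in snf22∆ (adjusted p = 0.0028) and 0.52 in snf22-(D996A-E997A) (adjusted p = 0.0134). The scaffold gene cul4 was at 0.40 in snf22∆ (adjusted p = 0.019) and 0.18 in snf22-(D996A-E997A) (adjusted p = 0.263), and csn1 was at 0.33 in snf22∆ (adjusted p = 0.0302) and 0.22 in snf22-(D996A-E997A) (adjusted p = 0.138). The adaptor gene ddb1 fell in both mutants, by 0.30 in snf22∆ (adjusted p = 0.00262) and by 0.17 in snf22-(D996A-E997A) (adjusted p = 0.0461). Of 11 genes of cyclin and Cdc2 control, 1 rose and 3 fell in snf22∆, and 0 rose and 4 fell in snf22-(D996A-E997A). The cyclin gene pas1 fell by 1.15 in snf22∆ (adjusted p = 0.00028) and by 0.68 in snf22-(D996A-E997A) (adjusted p = 0.00708).

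Markers of other cycle phases and of other cell states were measured beside the members, since the share of cells in each phase was not. Over all genes, 30.2% were called higher and 25.8% lower in snf22∆, and 25.8% higher and 22.7% lower in snf22-(D996A-E997A). Of 7 mitotic genes, 2 rose and 2 fell in snf22∆, and 1 rose and 2 fell in snf22-(D996A-E997A), with sums of 13100 to 13790 in snf22∆, 12550 to 15050 in snf22-(D996A-E997A) and 14690 to 16040 in WT. Of 6 genes of cell separation, which peak late in the cycle, 5 fell in each mutant, and their summed normalized count was 50050 to 50880 in snf22∆, 47310 to 63490 in snf22-(D996A-E997A) and 70410 to 81810 in WT. The glucanase gene eng1 fell by 1.32 on the log2 scale in snf22∆ (adjusted p = 2.71e-05) and by 1.03 in snf22-(D996A-E997A) (adjusted p = 0.000207). Of 9 histone genes, 1 rose and 3 fell in snf22∆, and 8 fell in snf22-(D996A-E997A), with sums of 186000 to 197600 in snf22∆, 143700 to 170900 in snf22-(D996A-E997A) and 180600 to 248600 in WT. Histone genes are near copies of each other, so that their reads may be split between them. Of the 6 M-cell genes, which mark h- cells, 1 rose and 5 fell in snf22∆ while all 6 rose in snf22-(D996A-E997A), and they summed to 2540 to 3394 in snf22∆, 8833 to 9382 in snf22-(D996A-E997A) and 4566 to 4762 in WT. The P-cell genes of the other mating type, of which 1 of 2 fell in each mutant, summed to 513.4 to 548 in snf22∆, 457 to 553.3 in snf22-(D996A-E997A) and 572.2 to 654.9 in WT. Of 4 meiosis genes 3 could be tested and 1 rose in each mutant. The part of a shift in cycle phases in the values of cig2, mrc1 and the other members was not tested.

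**Figure D5:**
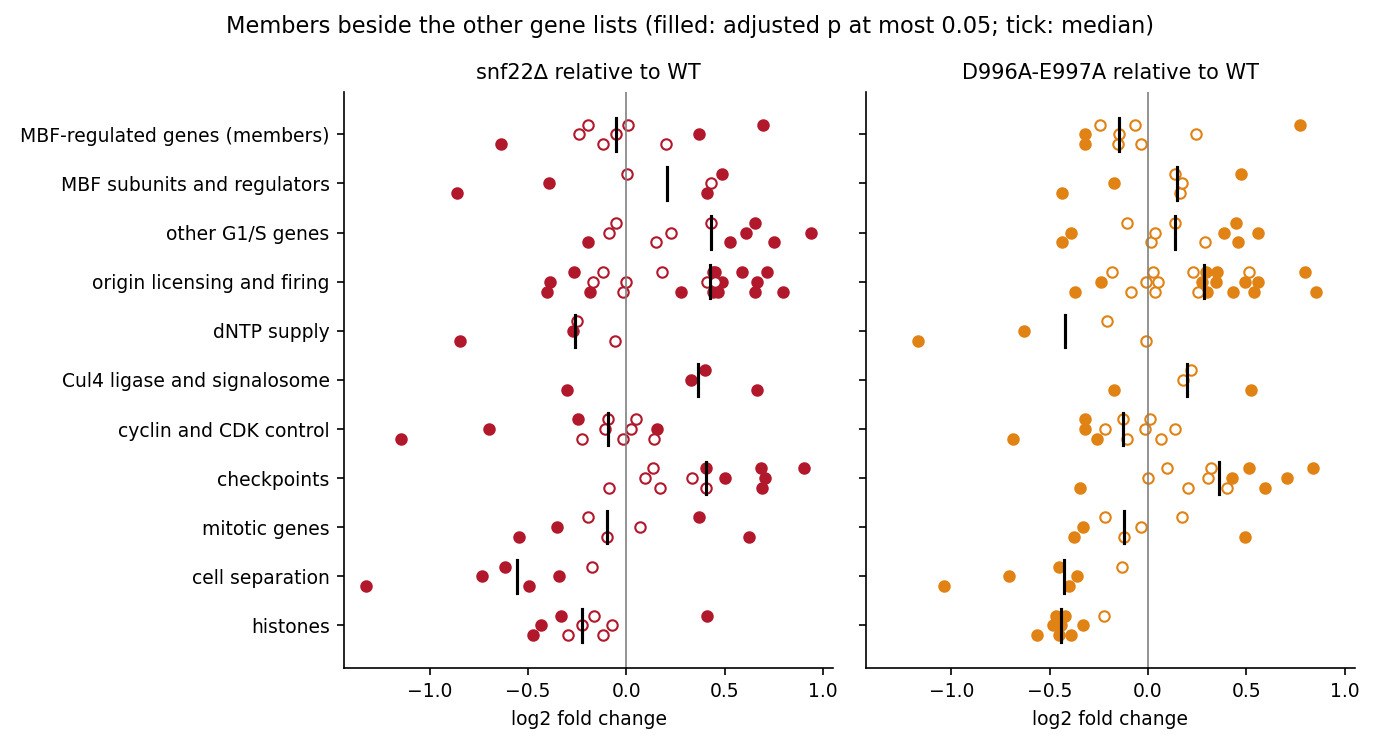
Log2 fold change (x axis) of each gene of the members and of 10 other lists, for each mutant relative to WT, with filled points for an adjusted p of at most 0.05 and a black tick at the median of the list. The members spread to both sides of 0, with a median of −0.05 for snf22∆ and of −0.15 for snf22-(D996A-E997A).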

How the data were processed

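Stranded poly(A)+ libraries of 9 cultures were sequenced as paired reads. The authors aligned them with HISAT2 2.1.0 to ASM294v2, converted the files with SAMtools and used HTSeq 0.10.0 to count the reads that fell on the exons of a gene. The deposited matrix holds raw counts with no scaling, for 6988 gene IDs, of which 1 stood on more than 1 line and was summed. The other deposited tables hold the authors' comparisons, made with DESeq2, and only the gene names of 1 of them were used.

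The quasi-likelihood test of edgeR 4.0.16 (glmQLFit, glmQLFTest; R 4.3.3) was run on TMM-scaled counts of the 6091 genes that passed the filter, 4990 of them coding. All 9 libraries entered 1 fit with genotype as the only factor, and p-values were adjusted by Benjamini-Hochberg over these genes. Intervals are 95% intervals of the fit. The members and the gene lists were chosen with earlier results of these data known. The genes named are the 9 members, at most 4 called genes of a list, taken by size of change, the 6 genes of most similar pattern, snf22 and the counted genes that lie over more than 1 base of a member on the other strand. For genes of the MBF list that were not called, values are given as well, and rep2 and yox1 were named after their values were seen. List genes were matched by name, 4 of them by a RefSeq synonym. Motifs and sequences came from the RefSeq genome and annotation of ASM294v3, a later build than the authors', by systematic ID and by that build's own coordinates. A table of promoters named in the plan was not used here. No coordinate came from the count files.

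The labels number the replicates. Deviations from the genotype means over 5164 genes with a mean count of at least 100 correlated within each number between snf22∆ and WT (0.335, 0.476 and 0.522). The values, intervals and p-values in the text are from the fit without a block, which does not use this pairing. A block for the number changed no member's call in that comparison. It did lower edgeR adjusted p-values there, to 0.00048 from 0.00796 for mrc1 and to 0.00376 from 0.0123 for nrm1. The precision of a member's log2 fold change, as the 95% interval on either side, was 0.18 to 0.40. The alternatives were RLE and upper quartile scaling, the Wald test of DESeq2 1.42.0, no filter on low counts, a fit of only the groups compared, a replicate block, coding genes only and the omission of each library, together with 1 alternative added after the data were seen, the omission of both libraries that stood apart. No pair of replicates was so close that sampling noise alone could account for its difference.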

Additional observations from a re-analysis of the deposited data

Results flagged for a closer look

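For 2 members the effects of the mutations differed from each other by the direct test of snf22-(D996A-E997A) relative to snf22∆. The log2 difference of cig2 was 0.49 (standard error 0.08, edgeR adjusted p = 0.00231), with all 3 snf22-(D996A-E997A) libraries above all 3 snf22∆ libraries. The log2 difference of cdt1 was −0.44 (standard error 0.12, edgeR adjusted p = 0.0241), with all 3 snf22-(D996A-E997A) libraries below all 3 snf22∆ libraries. The adjusted p was 5.8e-06 to 0.0153 for cig2 and 0.000894 to 0.101 for cdt1 over the 17 alternatives. Groups of 3 libraries were not tested for outlying values.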

How the results depend on the processing

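Each of the 27 member values was recomputed under 17 alternatives, and no called value changed direction. The rise of mrc1 in both mutants, the fall of cig2 in snf22∆ and its difference between the mutants passed the threshold in all of them. By the rule of the study 0 members were called under each. The count of members lower in snf22∆ was 1, and it was 2 with RLE, with the DESeq2 Wald test, with coding genes only and without both libraries that stood apart, and 1 to 2 when single libraries were left out. The count of members higher in snf22∆ was 2, and 1 to 2 with single libraries left out. The median of the members in snf22∆, −0.05, was 0.024 with upper quartile scaling, which moved the median of all genes to 0.10 in both mutants, and −0.12 to −0.017 with single libraries left out. In snf22-(D996A-E997A) relative to WT, 2 members were lower, against 0 with upper quartile scaling, 1 in a fit of only those groups, 5 without both libraries that stood apart and 0 to 4 with single libraries left out. There 1 was higher, against 2 with the replicate block and 1 to 2 with single libraries left out. In snf22-(D996A-E997A) relative to snf22∆, 1 was lower, against 2 in a fit of only those groups, 3 without both libraries that stood apart and 0 to 2 with single libraries left out. The cause of these changes was not tested. Same-numbered libraries were not paired by their deviations between snf22-(D996A-E997A) and WT (−0.335, 0.083 and 0.559) or snf22∆ (−0.004, 0.221 and 0.238). The replicate block made nrm1 a call in snf22-(D996A-E997A) and changed no other call. Over all genes, 1021 differed between the mutants, against 1952 in a fit of only those groups, 1906 without both libraries that stood apart and 517 to 1872 with single libraries left out, and 2955 differed between snf22-(D996A-E997A) and WT, against 1933 without snf22-(D996A-E997A) replicate 3. Changes below the fitted 95% intervals, 0.18 to 0.40 on the log2 scale, could not be resolved with 3 replicates.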
